A study of Mus musculus with 6 samples.

Results

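Genes that carry, store, burn and signal with lipids were followed in bone marrow RNA of mice with acute myeloid leukemia. The set takes 91 of the 9295 genes in the deposited count table. They were picked by the start of their symbols, which name the apolipoproteins other than Apoe, the ABC transporters of subfamilies A and G, fatty acid and oxysterol binding proteins, enzymes of fatty acid activation and oxidation, lipid droplet genes, phospholipases A2 and their counterparts, eicosanoid enzymes and lipid-sensing nuclear receptors. The symbols decide and not the function, so the pattern also takes genes of other function. The cytidine deaminase genes Apobec1 and Apobec3 and the endothelial gene Apold1 were set apart as 3 such genes. Others were counted in the role of their name, among them Apoo, Apool, Ptges3, Ptges3-ps and Acad8, as described below. RefSeq lists 170 protein-coding mouse genes that fit the pattern, and 80 of them, including Pparg, Ptgs1, Fabp4, Abcg1, Cpt1a, Hadha, Pnpla2 and Acadm, were not analysed here. No member was picked by its own measured value, but the set was chosen with earlier results of these data known.

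The 6 libraries form 2 groups of 3. The libraries called Con carry the genotype PAPOLA flox/flox, a floxed and intact allele, and those called KO the genotype PAPOLA KO. All 6 are labelled as bone marrow and as leukemia. The labels name neither the driver of the leukemia, the Cre line, the age and sex of the mice, nor a sort of cells, and do not state whether each library is a different mouse. Where it is not, a p-value reflects the spread between libraries alone, which may be technical.

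Macrophages and other myeloid cells take up lipoprotein lipids and free fatty acids, bind the acids to carrier proteins and activate them to acyl-CoA. The acyl-CoA is then burned in mitochondria and peroxisomes or stored as triglyceride and cholesteryl ester in lipid droplets. Arachidonic acid held in phospholipids is released by phospholipases A2 and turned into prostaglandins by cyclooxygenases or into leukotrienes and other hydroxy acids by lipoxygenases. The nuclear receptors of the PPAR and LXR classes sense fatty acids and oxysterols and act on many of these genes.

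Libraries held 8875022 to 11436216 counts, of which the 91 genes took 0.831% to 0.905% in Con and 0.498% to 0.547% in KO. Papola itself did not check the labels, since its count covers the whole gene and was 1.17-fold higher in KO, so directions rest on the labels. Con replicates 2 and 3 stood closer to each other (chi-square per degree of freedom 1.69) than any other pair within a group (18.1 to 24.3), so Con replicate 1 is often the value that lies apart in Con. With these 2 libraries summed as 1 sample, 37 members were higher and 36 lower, against 37 and 37 with all 6 libraries, and the only call lost was that of Abca1. All 15 markers of maturing neutrophils measured rose in KO, and their summed level was 0.294% to 0.302% of counts in Con and 15% to 17.2% in KO. Of 11 erythroid markers 10 rose (0.06% to 0.0723% in Con and 1.52% to 2.18% in KO). Of 14 macrophage markers 8 rose, among them Cd163 and the C1q genes, and 5 fell, among them Gpnmb, Cd68 and Adgre1. Their summed level was 1.43% to 2.13% in Con and 0.0924% to 0.167% in KO, but Gpnmb alone made up 82.5% to 85.4% of the sum in Con and fell by 10.73 on the log2 scale. The other 13 markers summed to 0.25% to 0.311% in Con and 0.0916% to 0.167% in KO, a sum without the most abundant gene that was added after the values were seen. Of the marker genes in the table, 0 had no count in all 6 libraries. Of 6 general myeloid genes 5 rose, among them Ptprc, Spi1 and Itgam, and 1, Csf2rb, fell by 2.98 on the log2 scale. All were present in every library. Their sum was 0.64% to 0.773% in Con and 1.07% to 1.33% in KO. Lyz2 made up 35.7% to 42.7% of it in Con and 74.3% to 77.8% in KO. The other 5 summed to 0.411% to 0.443% in Con and 0.254% to 0.303% in KO. In bulk RNA fewer cells of a type and less RNA per cell cannot be told apart, and the part of these cell types in the results on lipid genes was not tested.

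The lipid genes split evenly, and most of them changed. Of the 91 members 83 had enough counts to be tested, and 37 rose and 37 fell in KO at an adjusted p of 0.05 (edgeR quasi-likelihood test, Benjamini-Hochberg adjusted over all 8358 genes tested). Among all tested genes 39.6% rose and 42.4% fell, 82% in all, and among the tested members 44.6% did each, so these shares are near the background. The counts by role, family and list below rest on few genes each and are to be read beside these shares of all genes. Changes past the threshold and of at least 4-fold were seen in 20 members that rose (24.1%, against 11.3% of all genes) and in 22 that fell (26.5%, against 11%). The median log2 fold change was -0.04 among members and -0.06 among all tested genes. In 74 of the 83 (89.2%, against 84.5% of all genes) no KO library fell within the range of the Con libraries and the reverse. The filter keeps a gene that is high in a single group, so these shares describe the tested members and are no evidence about the 91.

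**Figure D1:**
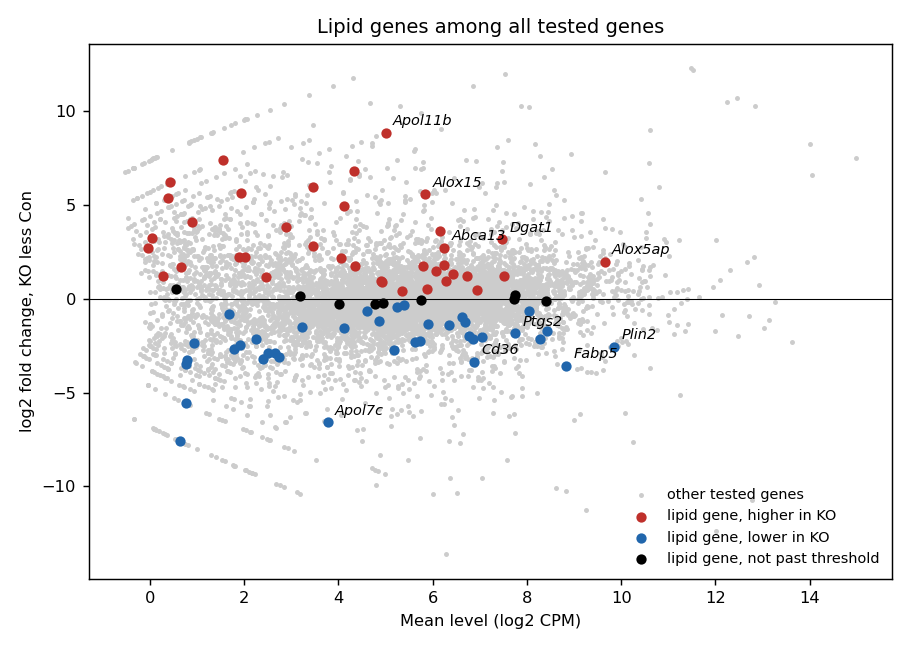
Each point is a tested gene, with its mean level in log2 CPM on the x axis and its log2 fold change, KO less Con, on the y axis. Grey points are other genes and coloured points the 83 tested lipid genes. These spread to both sides of 0 except at the lowest levels, where all lie above 0. The highest is Apol11b at 8.87, and the lowest is Pla2g2e, whose fitted value is no bound because it had no count in KO.

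**Figure D2:**
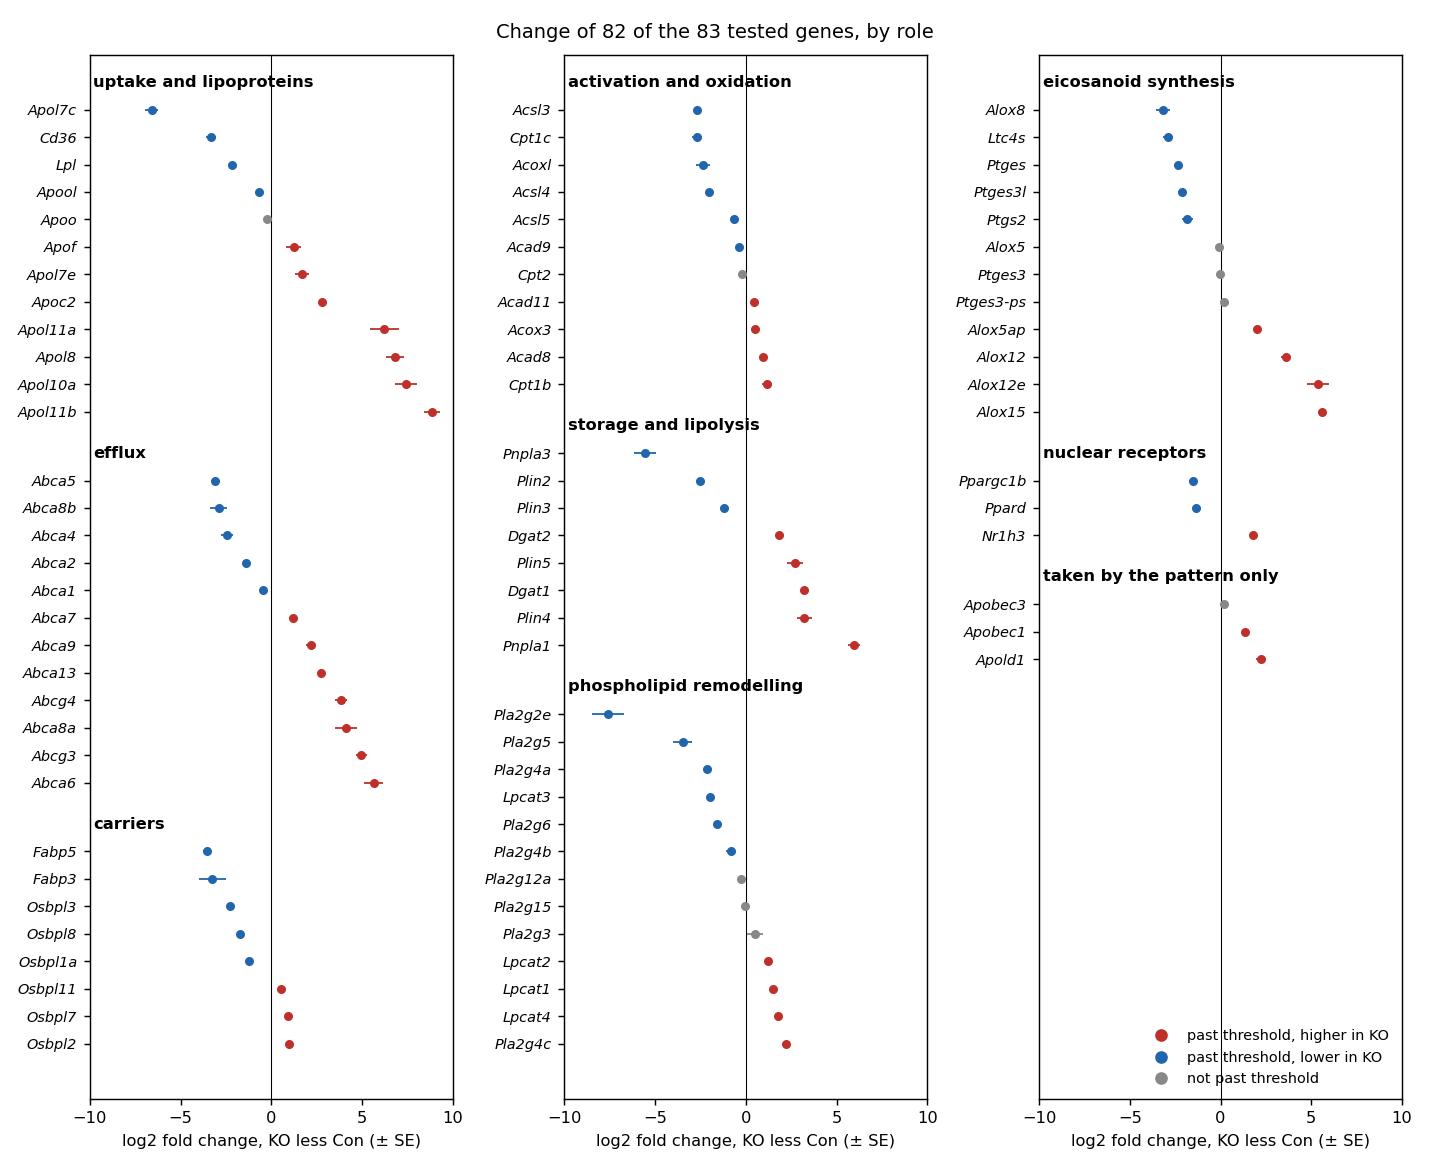
Points give the log2 fold change, KO less Con, and bars its standard error, for 82 of the 83 tested members sorted by role and colored by call. Within most roles some members lie well to the left of 0 and others well to the right.

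The starts of 4 of these genes are shown because their changes recur in the results, 3 that fell (Plin2, Cd36 and Ptgs2) and 1 that rose (Apol11b). The windows run from 250 bases before the transcription start to 50 after it and come from RefSeq on GRCm38.p6, as the reference table gives them by gene ID. Capitals mark matches, on either strand, to the nuclear receptor core AGGTCA, to the hypoxia response core ACGTG and to the C/EBP core TTGCGCAA.
Plin2, chr4:86670010-86670309, minus strand: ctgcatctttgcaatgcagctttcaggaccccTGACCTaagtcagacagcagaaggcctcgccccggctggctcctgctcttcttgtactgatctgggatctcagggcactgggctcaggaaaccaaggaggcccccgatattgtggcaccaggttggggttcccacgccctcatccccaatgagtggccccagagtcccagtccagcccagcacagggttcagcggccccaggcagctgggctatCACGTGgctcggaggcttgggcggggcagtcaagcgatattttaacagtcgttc
Cd36, chr5:17835847-17836146, minus strand: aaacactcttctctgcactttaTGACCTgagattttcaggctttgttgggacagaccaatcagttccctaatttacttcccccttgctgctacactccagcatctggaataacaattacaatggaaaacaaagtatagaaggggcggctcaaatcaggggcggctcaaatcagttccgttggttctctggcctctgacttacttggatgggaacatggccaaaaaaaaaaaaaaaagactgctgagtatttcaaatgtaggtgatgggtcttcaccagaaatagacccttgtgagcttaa
Ptgs2, chr1:150099781-150100080, plus strand: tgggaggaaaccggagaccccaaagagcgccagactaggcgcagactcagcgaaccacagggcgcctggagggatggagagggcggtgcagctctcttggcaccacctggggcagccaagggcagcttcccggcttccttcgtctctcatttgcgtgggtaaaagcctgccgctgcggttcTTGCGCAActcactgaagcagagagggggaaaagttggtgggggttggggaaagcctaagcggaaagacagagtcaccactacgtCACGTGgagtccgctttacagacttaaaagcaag
Apol11b, chr15:77643237-77643536, minus strand: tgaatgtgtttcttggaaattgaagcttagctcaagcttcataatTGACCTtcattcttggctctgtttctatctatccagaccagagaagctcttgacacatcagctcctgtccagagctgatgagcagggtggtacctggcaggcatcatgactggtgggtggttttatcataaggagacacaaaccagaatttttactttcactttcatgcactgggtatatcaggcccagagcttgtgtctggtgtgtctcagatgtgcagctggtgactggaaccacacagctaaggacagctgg
In these windows the match to AGGTCA begins 218 bases before the start in Plin2, 228 in Cd36 and 205 in Apol11b, each read on the opposite strand as TGACCT. Plin2 and Ptgs2 hold the palindrome CACGTG near the start, in which ACGTG matches on both strands and the matches overlap, and Ptgs2 holds TTGCGCAA 69 bases before the start.

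A window was matched for 72 of the 91 members. Some members have more than 1 window, so shares of windows are given beside counts of members. The core AGGTCA was found in 16.3% of all 32851 windows. It was in 25% of the windows of members that rose (7 of 29 members) and 22.6% of those of members that fell (7 of 29). ACGTG was found in 19.6% of all windows. It was in 15.6% of the windows of members that rose (5 of 29 members) and 29% of those of members that fell (9 of 29). Among the latter were Plin2, Ptgs2, Ppard, Osbpl3 and Osbpl8. The direct repeat of the PPAR type, AGGTCA given again after 1 base of any kind, was in 0.0396% of all windows and in Apol7c alone among called members. The LXR repeat, with 4 bases between the copies of AGGTCA, and the sterol element TCACCCCAC were in none of the windows of called members (0.0152% and 0.551% of all). TGACGTCA, the cyclic AMP element, was in Pnpla3 alone (1.79% of all windows) and TTGCGCAA in Ptgs2 alone (0.183%). The TATA box TATAAA was in 3 members that rose and 3 that fell (9.38% and 9.68% of their windows, against 13.6% of all). These are letters in short windows and say nothing of binding.

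The members of the uptake and lipoprotein role divided into 7 that rose (58.3%, against 39.6% of all tested genes) and 4 that fell (33.3%, against 42.4%). Cd36 and Lpl were among those that fell. Both counts include apolipoproteins L, and Apool is among those that fell. The split is thus not a result on uptake and lipoproteins alone. Cd36 (gene ID 12491), a scavenger receptor that brings in fatty acids and oxidized lipoproteins, stood at 141, 253 and 238 CPM in Con replicates 1, 2 and 3 and 19.6, 14.9 and 27.7 CPM in KO replicates 1, 2 and 3. Con replicate 1 was the lowest Con library and still well above the highest KO library. The log2 fold change was -3.35 (SE 0.27, edgeR adjusted p = 4.26e-06), a level 10.2-fold lower. Lpl (gene ID 16956), lipoprotein lipase, which frees fatty acids from circulating triglyceride, was likewise lowest in replicate 1 among the Con libraries, with 335, 579.7 and 597 CPM in Con replicates 1, 2 and 3 and 94.2, 141 and 103 CPM in KO replicates 1, 2 and 3. Its log2 fold change was -2.16 (SE 0.24, edgeR adjusted p = 2.89e-05). Apoc2, the cofactor that activates this lipase, moved the other way and rose from 2.89 ± 0.157 CPM in Con to 20.3 ± 1.13 CPM in KO (SD, n = 3 each), a log2 fold change of 2.80 (SE 0.15, edgeR adjusted p = 1.8e-07). The enzyme and its activator thus changed in opposite directions.

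Of the 10 apolipoprotein members 7 rose and 2 fell. The apolipoproteins L, intracellular proteins of which several are linked to interferon responses and membrane permeability, spread widely. Apol11b (gene ID 328563) had 2, 3 and 0 counts in Con replicates 1, 2 and 3 and 392, 571 and 647 counts in KO replicates 1, 2 and 3, and its log2 fold change was 8.87 (SE 0.43, edgeR adjusted p = 1.88e-07). Apol8 was at 0.379, 0.393 and 0.3199 CPM in Con replicates 1, 2 and 3 and 29.1, 30.1 and 68.5 CPM in KO replicates 1, 2 and 3. KO replicate 3 stood well above the other KO libraries, and all were far above Con (6.82, SE 0.51). Apol7c fell, with 31.97, 20.9 and 21.3 CPM in Con replicates 1, 2 and 3 and 0.234, 0.123 and 0.386 CPM in KO replicates 1, 2 and 3 and a log2 fold change of -6.59 (SE 0.36, edgeR adjusted p = 2.05e-07). The neighbour in name Apol7e rose by 1.69 at levels near 1 CPM, where a library holds about 10 counts. Apol10a and Apol11a each had 1 count over the Con group, and their ratios of KO to Con were 248 (exact 95% interval 44 to 9880) and 109 (18.8 to 4350), intervals that cover counting error only. Copies of this family resemble each other, and Apol7c and Apol7e carry counts that are not whole, so reads may have been split between copies and their single values are uncertain.

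Apoo and Apool are named as apolipoproteins but encode subunits of the mitochondrial MICOS complex, which shapes the inner membrane. Apool fell from 29.03 ± 0.694 CPM in Con to 18.4 ± 2.22 CPM in KO, a log2 fold change of -0.66 (SE 0.12, edgeR adjusted p = 0.00056). Apoo was at 17.1 ± 0.648 CPM in Con and 14.3 ± 0.839 CPM in KO and did not pass (-0.25, adjusted p = 0.0761), although the groups did not overlap. It passed when libraries were scaled by size only (-0.61, adjusted p = 0.00117), and likewise with upper-quartile scaling (-0.34, adjusted p = 0.0273). Apof, which inhibits lipid transfer between lipoproteins, was at 0.654 ± 0.267 CPM in Con and 1.57 ± 0.537 CPM in KO and its call (1.24, adjusted p = 0.0177) was lost with library size only, without Con replicate 2 and without KO replicate 3 (adjusted p 0.0615 to 0.0792).

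Sterol and phospholipid exporters of the ABC class divided into 7 that rose (58.3%, against 39.6% of all tested genes) and 5 that fell (41.7%, against 42.4%). Abca1 (gene ID 11303), which loads cholesterol onto apolipoprotein A-I, was at 36.5, 45.6 and 47.02 CPM in Con replicates 1, 2 and 3 and 26.6, 30.1 and 38.5 CPM in KO replicates 1, 2 and 3. The groups overlapped, and the log2 fold change of -0.44 (SE 0.15, edgeR adjusted p = 0.0214) lost its call without Con replicate 2, Con replicate 3, KO replicate 1 or KO replicate 2 (adjusted p 0.0704 to 0.0851). Abca2, a transporter of endosomes and lysosomes, fell from 116 ± 11.2 CPM in Con to 44.4 ± 8.97 CPM in KO (-1.39, SE 0.14, edgeR adjusted p = 1.31e-05), and Abca5, also lysosomal, fell from 10.5 ± 1.004 CPM in Con to 1.24 ± 0.377 CPM in KO (-3.08, SE 0.25, edgeR adjusted p = 2.25e-06). Abca13 (gene ID 268379) was higher in KO, with 16.8, 20.9 and 22.7 CPM in Con replicates 1, 2 and 3 and 166, 106 and 129 CPM in KO replicates 1, 2 and 3 and no overlap, a log2 fold change of 2.73 (SE 0.18, edgeR adjusted p = 8.63e-07). Abca7, a phospholipid transporter with a part in phagocytosis, rose from 111 ± 3.21 CPM in Con to 258 ± 36.8 CPM in KO (1.21, SE 0.11, edgeR adjusted p = 4.74e-06). In the subfamily G, Abcg4, which exports sterols, rose from 1.04 ± 0.328 CPM in Con to 14.9 ± 4.81 CPM in KO (3.83, SE 0.32, edgeR adjusted p = 2.88e-06), and the rodent gene Abcg3 rose from 1.14 ± 0.506 CPM in Con to 35.9 ± 9.21 CPM in KO (4.96, SE 0.31, edgeR adjusted p = 5.77e-07).

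Close relatives among these transporters moved apart. Abca6, Abca8a, Abca8b and Abca9 are similar genes in 1 cluster. Abca9 rose by 2.17, Abca6 by 5.63 from 6 counts over the Con group, and Abca8a by 4.10 from 8, while Abca8b fell from 9.92 ± 1.66 CPM in Con to 1.304 ± 1.03 CPM in KO (-2.91, SE 0.46, edgeR adjusted p = 0.000285). Its KO libraries held 17, 1 and 14 counts, so KO replicate 2 was nearly empty of it. Abca4, known for its part in the retina, was at 5.44 ± 0.285 CPM in Con and 0.997 ± 0.494 CPM in KO and fell by 2.45 on the log2 scale.

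The carriers of fatty acids inside the cell fell. Fabp5 (gene ID 16592), the epidermal fatty acid binding protein, which is also made by macrophages and delivers ligand to PPAR delta, was at 673, 930.1 and 911 CPM in Con replicates 1, 2 and 3 and 71.7, 55.9 and 85.3 CPM in KO replicates 1, 2 and 3. Every Con library was several times above every KO library, and the log2 fold change was -3.56 (SE 0.19, edgeR adjusted p = 2.15e-07), a level 11.8-fold lower. The heart form Fabp3 fell as well (-3.25, SE 0.73, edgeR adjusted p = 0.00235), from 13.7, 35.98 and 43 counts in Con replicates 1, 2 and 3 to 2, 4 and 0 counts in KO replicates 1, 2 and 3. Fabp7, the brain form, had at most 5 counts in any library and was not tested. The macrophage markers were lower in their sum with and without Gpnmb, as given above, while 8 of the 14 rose. Across the Con libraries the list was lowest in replicate 1, at 1.43% against 2.06% and 2.13% (0.25% against 0.311% and 0.311% without Gpnmb). Fabp5, Cd36 and Lpl were lowest in that library too, while Ptgs2, Alox5, Apol7c and Abca2 were highest in it. Con replicates 2 and 3 were close to each other, so replicate 1 often lies apart and sharing it is no result. The part of macrophages in the fall of these genes was not tested.

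Oxysterol binding proteins move sterols and phosphoinositides between membranes at contact sites. Of 6 tested, 3 fell and 3 rose. Osbpl8 (gene ID 237542), which exchanges phosphatidylserine between the endoplasmic reticulum and the plasma membrane, was at 456, 561 and 556 CPM in Con replicates 1, 2 and 3 and 167, 161 and 149.8 CPM in KO replicates 1, 2 and 3 (-1.72, SE 0.10, edgeR adjusted p = 3.53e-07). Osbpl3 fell from 86.2 ± 11.7 CPM in Con to 17.8 ± 1.204 CPM in KO (-2.27, SE 0.12, edgeR adjusted p = 1.95e-07), and Osbpl1a, which senses cholesterol on late endosomes, fell from 39.4 ± 2.17 CPM in Con to 17.1 ± 1.63 CPM in KO (-1.21, SE 0.11, edgeR adjusted p = 5.77e-06). The 3 that rose each had a log2 fold change under 1. Osbpl2 rose from 52.9 ± 4.49 CPM in Con to 104 ± 6.71 CPM in KO (0.98, SE 0.09), Osbpl7 by 0.91 (SE 0.15) and Osbpl11 by 0.52 (SE 0.08). The call of Osbpl11 was lost with library size only (0.17, adjusted p = 0.0878). Osbp2, Osbpl6 and Osbpl10 were too low to test.

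All 3 acyl-CoA synthetases tested fell, as did 42.4% of all tested genes. These enzymes trap fatty acids in the cell as acyl-CoA. Acsl4 (gene ID 50790), which prefers arachidonic acid and shapes the sensitivity of membranes to peroxidation, was at 185, 226 and 222 CPM in Con replicates 1, 2 and 3 and 47.3, 54.6 and 52.5 CPM in KO replicates 1, 2 and 3 (-2.04, SE 0.10, edgeR adjusted p = 1.37e-07). Acsl3, found on nascent lipid droplets, fell from 61.1 ± 0.7301 CPM in Con to 9.29 ± 1.87 CPM in KO (-2.72, SE 0.14, edgeR adjusted p = 1.1e-07), a level 6.59-fold lower. Acsl5 fell less, from 318 ± 2.98 CPM in Con to 205 ± 12.7 CPM in KO (-0.63, SE 0.08, edgeR adjusted p = 4.54e-05). In each of the 3 genes the groups were well apart. Acsl6 had 1 to 4 counts per library and was not tested.

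Genes of fatty acid oxidation moved in both directions. Cpt2, the inner carnitine palmitoyltransferase of mitochondria, was at 33.1 ± 1.74 CPM in Con and 28.3 ± 3.16 CPM in KO and did not pass (-0.22, adjusted p = 0.0879), but passed with library size only (-0.58, adjusted p = 0.000704), with upper-quartile scaling (-0.31, adjusted p = 0.0294) and without KO replicate 1 (-0.32, adjusted p = 0.0246). The muscle form Cpt1b was low and rose from 3.48 ± 1.08 CPM in Con to 7.83 ± 2.04 CPM in KO (1.17, SE 0.28, edgeR adjusted p = 0.00313), and the brain form Cpt1c fell by 2.67 on the log2 scale from 5.02 ± 0.551 CPM in Con to 0.775 ± 0.159 CPM in KO. The peroxisomal oxidase gene Acox3, whose enzyme takes branched chains, rose by 0.49 (SE 0.13), a call lost with library size only (0.14, adjusted p = 0.326), and Acoxl fell by 2.36 on the log2 scale from counts of 26.04, 37.1 and 36.1 in Con. Among the acyl-CoA dehydrogenases, Acad8, an enzyme of valine breakdown, rose from 20.7 ± 0.759 CPM in Con to 39.4 ± 3.61 CPM in KO (0.93, SE 0.11), Acad11 rose by 0.43 (SE 0.10) (0.08, adjusted p = 0.489, with library size only), and Acad9, also an assembly factor of respiratory complex I, fell from 46.8 ± 1.58 CPM in Con to 36.6 ± 3.66 CPM in KO (-0.36, SE 0.10, edgeR adjusted p = 0.00738). Acox2 had 1 count over the KO group and 13 over Con and was not tested.

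Of the 4 perilipins, which coat lipid droplets, 2 fell and 2 rose, and both diacylglycerol acyltransferases rose. Plin2 (gene ID 11520), the main droplet coat protein of cells outside fat tissue, was at 1317, 1674 and 1714 CPM in Con replicates 1, 2 and 3 and 319, 233 and 249 CPM in KO replicates 1, 2 and 3. The lowest Con library held about 4 times the level of the highest KO library, and the log2 fold change was -2.55 (SE 0.15, edgeR adjusted p = 3.26e-07), a level 5.87-fold lower. Plin3, a coat protein of small droplets, fell from 143 ± 12.2 CPM in Con to 61.6 ± 14.2 CPM in KO (-1.21, SE 0.16, edgeR adjusted p = 7.52e-05). Dgat1 (gene ID 13350), an enzyme of the last step of triglyceride synthesis, was at 34.4, 37.6 and 34.5 CPM in Con replicates 1, 2 and 3 and 344, 289 and 333 CPM in KO replicates 1, 2 and 3, a log2 fold change of 3.18 (SE 0.10, edgeR adjusted p = 8.24e-09) and a level 9.07-fold higher. Dgat2, an unrelated protein with the same activity, was at 36.7, 32.8 and 32.5 CPM in Con replicates 1, 2 and 3 and 136, 97.2 and 124 CPM in KO replicates 1, 2 and 3 (1.81, SE 0.13, edgeR adjusted p = 9.84e-07). All 3 KO libraries lay above all 3 Con libraries for both enzymes. The direction of Plin2, Plin3, Dgat1 and Dgat2 was the same under each scaling tried. Scaling could hardly turn changes of this size, since it moved the median of all genes only from -0.06 to -0.41 at most.

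The remaining droplet genes were low. Plin4 and Plin5, known from fat and from heart and other oxidative tissue, rose from 2, 2 and 3 and from 5, 2 and 2 counts in Con replicates 1, 2 and 3 to 14, 17 and 13 and 15, 14 and 10 counts in KO replicates 1, 2 and 3 (3.22 and 2.71). Of 10 marrow fat cell markers only Retn and Lipe were in the table, and their sum was 0.00212% to 0.00268% of counts in Con and 0.00413% to 0.00439% in KO, so Adipoq and Lep were not analysed here and the part of fat cells was not tested. Pnpla1, an enzyme of skin ceramide synthesis, rose from 0.368 ± 0.236 CPM in Con to 23.4 ± 5.27 CPM in KO (5.96, SE 0.33, edgeR adjusted p = 2.09e-07). Pnpla3, a droplet hydrolase known from fatty liver, had 29, 34 and 33 counts in Con replicates 1, 2 and 3 and 1 count over the KO group, and was 61-fold lower (exact 95% interval 10.7 to 2440).

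**Figure D3:**
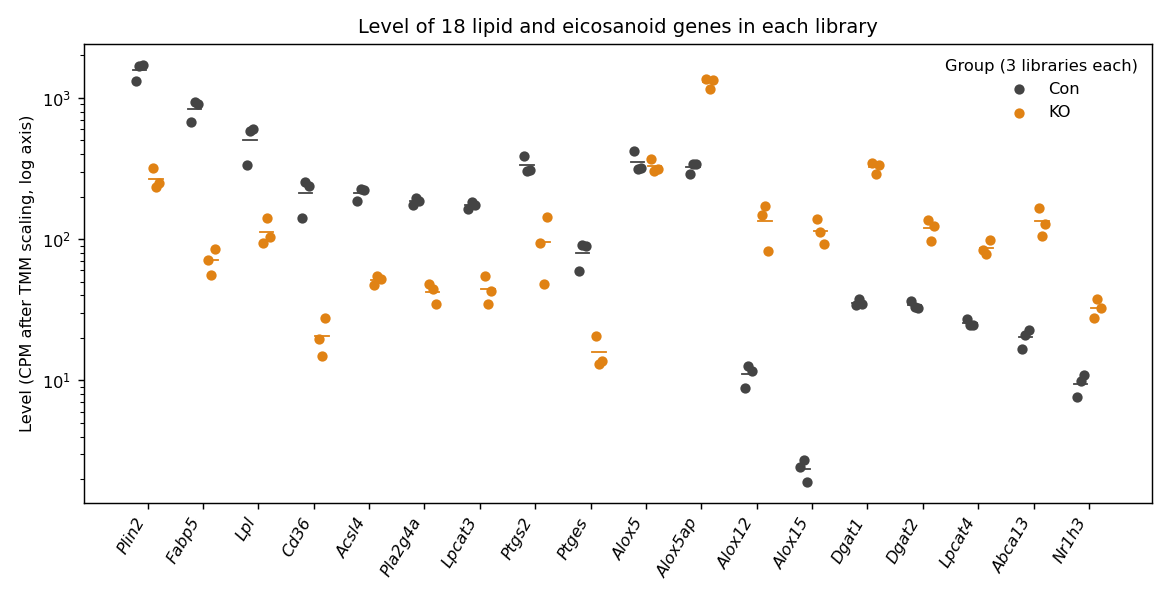
Points give the level in each library in CPM after TMM scaling on a log axis, for 18 members, with short lines at the group means of 3 libraries. Con and KO do not overlap in any of the 18 but Alox5; heights are not scaled to gene length and are to be read within a gene.

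Of the 9 phospholipases A2 tested, 5 fell (55.6%, against 42.4% of all tested genes) and 1 rose (11.1%, against 39.6%). Pla2g4a (gene ID 18783), the cytosolic enzyme that releases arachidonic acid for eicosanoid synthesis, was at 175, 197 and 186 CPM in Con replicates 1, 2 and 3 and 48.3, 44.2 and 34.9 CPM in KO replicates 1, 2 and 3. The groups were far apart, with a log2 fold change of -2.13 (SE 0.12, edgeR adjusted p = 2.48e-07). Pla2g6, the calcium-independent enzyme, fell from 24.8 ± 1.53 CPM in Con to 8.299 ± 1.11 CPM in KO (-1.58, SE 0.14, edgeR adjusted p = 4.51e-06). The secreted enzymes Pla2g5 and Pla2g2e were low in Con and at or near 0 counts in KO. Pla2g5 fell from 27, 29 and 37 to 2, 3 and 0 counts per library (-3.49, SE 0.54), and Pla2g2e, with 22, 35 and 31 counts in Con and none in KO, was at least 18.7-fold lower, taking 3 counts in the KO group as the floor. Pla2g4c alone among the 9 rose, from 1.51 ± 0.172 CPM in Con to 7.06 ± 1.01 CPM in KO (2.22, SE 0.23, edgeR adjusted p = 1.27e-05), and Pla2g4b fell by 0.84 on the log2 scale. The lysosomal enzyme Pla2g15 was at 54.2 ± 3.305 CPM in Con and 52.6 ± 2.63 CPM in KO (-0.04, adjusted p = 0.652), with library size only at -0.40 (adjusted p = 0.00197). Pla2g12a was at 29.6 ± 1.89 CPM in Con and 24.6 ± 3.06 CPM in KO (-0.27, adjusted p = 0.0609) and passed with library size only, with upper-quartile scaling and without KO replicate 3 (adjusted p 0.000809 to 0.0169). Pla2g3 was at 1.09 ± 0.391 CPM in Con and 1.54 ± 0.695 CPM in KO (adjusted p = 0.289).

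The acyltransferases that put fatty acids back into lysophospholipids split 3 to 1. Lpcat3 (gene ID 14792), which inserts arachidonic and linoleic acid into phosphatidylcholine and is a known LXR target, was at 163, 182 and 175 CPM in Con replicates 1, 2 and 3 and 55.04, 34.7 and 42.98 CPM in KO replicates 1, 2 and 3 (-1.97, SE 0.15, edgeR adjusted p = 1.68e-06). The others rose. Lpcat1, known for saturated chains in lung surfactant, rose from 36.1 ± 3.63 CPM in Con to 99.8 ± 18.9 CPM in KO (1.47, SE 0.14), Lpcat2, which can make platelet-activating factor, from 63.2 ± 1.94 CPM in Con to 149 ± 14.7 CPM in KO (1.24, SE 0.09), and Lpcat4 from 25.5 ± 1.498 CPM in Con to 86.8 ± 10.9 CPM in KO (1.77, SE 0.11, edgeR adjusted p = 4.26e-07). In all 4 the groups did not overlap. Lpcat3 carries counts that are not whole, so part of its reads may have been shared with another gene or transcript. The release of arachidonate by Pla2g4a, its activation by Acsl4 and its return to phospholipid by Lpcat3 are known as linked steps, and these 3 genes, picked out after their values were seen, fell by 2.13, 2.04 and 1.97 on the log2 scale.

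The inducible cyclooxygenase and 2 of the 4 genes named as prostaglandin E synthases fell, and the other 2 did not pass. Ptgs2 (gene ID 19225), which makes prostaglandin H2 from arachidonic acid, was at 390.3, 306 and 309 CPM in Con replicates 1, 2 and 3 and 93.6, 48.4 and 142 CPM in KO replicates 1, 2 and 3. The KO libraries were spread widely, and the lowest Con library was still above all of them. The log2 fold change was -1.82 (SE 0.32, edgeR adjusted p = 0.000571). Ptges, the inducible microsomal prostaglandin E synthase that works with it, was at 59.8, 90.4 and 89.7 CPM in Con replicates 1, 2 and 3 and 20.7, 13.1 and 13.8 CPM in KO replicates 1, 2 and 3 (-2.33, SE 0.22, edgeR adjusted p = 9.38e-06). Con replicate 1 was highest for Ptgs2 and lowest for Ptges. Ptges3 is better known as the HSP90 cochaperone p23 and was at 211 ± 10.97 CPM in Con and 209 ± 32.8 CPM in KO (-0.01, adjusted p = 0.933; -0.37, adjusted p = 0.0175, with library size only). The pseudogene Ptges3-ps, a near copy with which reads may be shared, was at 8.41 ± 2.21 CPM in Con and 9.501 ± 0.862 CPM in KO (adjusted p = 0.443), and Ptges3l fell from 6.799 ± 0.443 CPM in Con to 1.55 ± 0.119 CPM in KO (-2.12, SE 0.22, edgeR adjusted p = 1.24e-05).

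Of the 5 lipoxygenases tested 3 rose, 1 fell and 1 did not pass, and the gene of the 5-lipoxygenase activating protein rose. Alox5 (gene ID 11689), the 5-lipoxygenase that starts leukotriene synthesis, did not pass, at 424, 314 and 317 CPM in Con replicates 1, 2 and 3 and 366, 302 and 314 CPM in KO replicates 1, 2 and 3. The groups overlapped and the log2 fold change was -0.10 (SE 0.13, edgeR adjusted p = 0.49), but -0.46 (adjusted p = 0.0109) when scaled by library size only and 0.07 (adjusted p = 0.575) without Con replicate 1. Its partner Alox5ap (gene ID 11690), the membrane protein FLAP that presents arachidonic acid to it, was at 291, 343 and 342 CPM in Con replicates 1, 2 and 3 and 1368, 1161 and 1338 CPM in KO replicates 1, 2 and 3, a log2 fold change of 1.99 (SE 0.11, edgeR adjusted p = 1.69e-07) and a level 3.96-fold higher. All KO libraries lay above all Con libraries for this partner gene. Ltc4s, which makes leukotriene C4, fell from 8.77 ± 0.605 CPM in Con to 1.18 ± 0.491 CPM in KO (-2.87, SE 0.27, edgeR adjusted p = 6.73e-06). Outside the set, Lta4h, which makes leukotriene B4 from the same precursor, rose from 201 ± 9.82 CPM in Con to 901 ± 142 CPM in KO (2.16, SE 0.12, edgeR adjusted p = 2.38e-07). Neutrophil markers moved with Alox5ap and Lta4h, 15 of 15 higher, and mast cell and basophil markers with Ltc4s, 7 of 8 lower (0.253% to 0.346% of counts in Con and 0.109% to 0.151% in KO). Hdc, the marker that rose, made up 54% to 62.9% of that sum in KO. The other 7 summed to 0.225% to 0.31% in Con and 0.0409% to 0.0614% in KO. Eosinophil markers, with 6 of 7 higher, moved with Alox5ap and Lta4h and against Ltc4s. Macrophage markers went both ways, 8 of 14 higher and 5 lower. The part of these cell types was not tested.

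Alox15 (gene ID 11687), the 12/15-lipoxygenase of mouse macrophages and eosinophils, was at 2.42, 2.75 and 1.92 CPM in Con replicates 1, 2 and 3 and 139.8, 112 and 92.5 CPM in KO replicates 1, 2 and 3. No Con library reached 3 CPM and no KO library fell below 92 CPM, and the log2 fold change was 5.59 (SE 0.20, edgeR adjusted p = 2.14e-08), a level 48.2-fold higher. Eosinophil markers moved in the same direction, with 6 of 7 higher, and their sum was 0.051% to 0.0615% of counts in Con and 0.123% to 0.154% in KO. Prg2 made up most of that sum, and the other 6 summed to 0.00842% to 0.00975% in Con and 0.0482% to 0.0569% in KO. Ccr3 rose by 7.43 (SE 0.30), and Ear1 and Ear2, similar genes between which reads may be split, by 4.17 (SE 0.18) and 3.87 (SE 0.09). Siglecf, the eosinophil marker that did not rise, was at -0.08 (edgeR adjusted p = 0.637). Of 14 macrophage markers 8 rose and 5 fell. The part of eosinophils and of macrophages in the rise of Alox15 was not tested. Alox12 (gene ID 11684), the platelet type 12-lipoxygenase, was at 8.86, 12.7 and 11.7 CPM in Con replicates 1, 2 and 3 and 148, 172 and 81.97 CPM in KO replicates 1, 2 and 3 (3.60, SE 0.28, edgeR adjusted p = 3e-06). KO replicate 3 was the lowest KO library for it. Of 6 megakaryocyte and platelet markers 3 rose, 1 fell and 2 did not pass, and their sum was 0.0262% to 0.0284% of counts in Con and 0.013% to 0.0255% in KO, lowest in KO replicate 3. In Con 72% to 77.3% of that sum was Vwf, which endothelium also makes and which fell by 3.04 on the log2 scale. The other 5 summed to 0.00639% to 0.00733% in Con and 0.0108% to 0.0231% in KO. Tubb1, the platelet beta tubulin, rose by 4.71 (SE 0.34), to 121, 145 and 59.3 CPM in KO replicates 1, 2 and 3, and like Alox12 it was highest in KO replicate 2 and lowest in KO replicate 3. Gp1bb rose by 2.65 (SE 0.25). The part of platelets and megakaryocytes in the rise of Alox12 was not tested. Alox8 fell from 8.302 ± 1.72 CPM in Con to 0.881 ± 0.654 CPM in KO (-3.19, SE 0.39, edgeR adjusted p = 3.79e-05), and the epidermal Alox12e, with 2 counts over Con and 65 over KO, was 51.1-fold higher (exact 95% interval 13.6 to 431).

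Among lipid-sensing receptors, Nr1h3 (gene ID 22259), LXR alpha, rose and Ppard (gene ID 19015), PPAR delta, fell. Nr1h3 was at 7.65, 9.902 and 10.9 CPM in Con replicates 1, 2 and 3 and 27.5, 37.5 and 32.3 CPM in KO replicates 1, 2 and 3 (1.77, SE 0.17, edgeR adjusted p = 7.26e-06). Ppard was at 82.1, 86.99 and 86.1 CPM in Con replicates 1, 2 and 3 and 37.98, 30.2 and 31.7 CPM in KO replicates 1, 2 and 3 (-1.35, SE 0.10, edgeR adjusted p = 1.38e-06). The coactivator gene Ppargc1b fell from 12.9 ± 1.36 CPM in Con to 4.54 ± 1.76 CPM in KO (-1.51, SE 0.24, edgeR adjusted p = 0.000265). Ppara had no count in any library, and Ppargc1a had 21 counts over Con and 3 over KO and was not tested. Several textbook LXR targets did not share a direction. Abca1 was at -0.44, Lpcat3 at -1.97 and Srebf1, outside the set, at -1.73 (SE 0.10), while Mylip, also outside it, rose by 2.04 (SE 0.17) and Apoe by 6.51 (SE 0.18). The genes picked here as known PPAR targets did not share a direction either. Plin2 was at -2.55 and Cd36 at -3.35, while Plin4 was at 3.22, Plin5 at 2.71, Cpt1b at 1.17 and Slc25a20 at 0.44. Plin4 and Plin5 rest on 2 to 5 counts per Con library. The targets of both receptor classes were named after their values were seen. Neither choice is complete, so how many stand on each side is no result.

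The 3 genes set apart as taken by their symbols only were higher or did not pass. Apobec1, which edits the messenger RNA of apolipoprotein B, rose from 49.5 ± 4.27 CPM in Con to 124 ± 8.51 CPM in KO (1.32, SE 0.09, edgeR adjusted p = 1.05e-06). Apold1, an immediate early gene of endothelium, rose by 2.21 (SE 0.27) from counts of 24, 15 and 14 in Con. Apobec3, a restriction factor of retroviruses, was at 198 ± 29.3 CPM in Con and 228 ± 9.63 CPM in KO (0.20, adjusted p = 0.107), passed without Con replicate 1 (0.34, adjusted p = 0.00735) and with DESeq2 (0.26, adjusted p = 0.042), and was at -0.16 with library size only.

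Other genes of the same pathways were taken from lists drawn up by function, with earlier results of these data known. In the order given below, the lists held 22, 32, 30, 18 and 36 genes, of which 16, 21, 20, 9 and 21 were tested. The rest were not analysed here or had too few counts, so the shares describe the tested genes only. Their counts stand beside the shares of all tested genes, 39.6% higher and 42.4% lower. Of 16 genes of lipoprotein receptors and cholesterol handling 11 fell (68.8%) and 4 rose (25%), with a median log2 fold change of -1.48 against -0.06 for all genes. Vldlr, a lipoprotein receptor, fell by 4.05 on the log2 scale, Ch25h, which makes 25-hydroxycholesterol, by 6.57 and Npc1, which exports cholesterol from lysosomes, by 2.66. Those that rose were Apoe, Mylip, Cyp27a1 (2.63, SE 0.25), which starts the acidic route to bile acids, and Gramd1a. Macrophage scavenger receptor Msr1 fell by 2.71, like Cd36 at -3.35.

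Of 21 further genes of storage and lipolysis 9 rose (42.9%) and 10 fell (47.6%), near the shares of all tested genes (39.6% and 42.4%). The droplet-associated inhibitors of the lipase Pnpla2 parted. Hilpda, induced by hypoxia, fell from 294 ± 11.3 CPM in Con to 11.5 ± 1.34 CPM in KO (-4.68, SE 0.11, edgeR adjusted p = 2.39e-09), and G0s2 rose from 3.61 ± 0.531 CPM in Con to 264 ± 54.3 CPM in KO (6.19, SE 0.19, edgeR adjusted p = 1.04e-08). Abhd5, the activator of that lipase, rose by 1.56 (SE 0.10), the hormone-sensitive lipase gene Lipe by 1.17 (SE 0.10) and the monoglyceride lipase gene Mgll by 1.71 (SE 0.09). The acyltransferases and lipin earlier on the route to triglyceride divided. Agpat2 rose by 2.37 (SE 0.11) and Gpat3 by 1.70 (SE 0.11), Agpat4, Agpat5, Gpat4 and Lpin2 were lower at -1.41, -0.95, -0.64 and -0.88, and Agpat3 did not pass (-0.10, adjusted p = 0.356).

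Of 20 further genes of fatty acid oxidation 9 rose and 9 fell (45% each), with a median of 0.25. These shares were near those of all tested genes (39.6% and 42.4%). Among them were the fatty acid transport proteins Slc27a4 with 2.21 (SE 0.12) and Slc27a1 with -3.08 (SE 0.24) and the peroxisomal importer Abcd3 with -1.23 (SE 0.09). The mitochondrial carnitine carrier Slc25a20 was at 0.44 (SE 0.12) and the thiolase Acaa2 at 0.38 (SE 0.09). Of 9 partners of nuclear receptors 4 rose and 4 fell (44.4% each), again near the shares of all tested genes. Srebf1 and Srebf2, the regulators of fatty acid and sterol synthesis, fell by 1.73 and 1.32, and Rara, the retinoic acid receptor alpha, rose by 1.37 (SE 0.14).

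Of 21 further eicosanoid enzymes and receptors 14 rose (66.7%, against 39.6% of all tested genes) and 4 fell (19%, against 42.4%), with a median of 1.91. Fpr2, a receptor for formyl peptides and lipoxin A4, rose from 65.1 ± 3.01 CPM in Con to 570.5 ± 64.5 CPM in KO (3.13, SE 0.11, edgeR adjusted p = 1.28e-08), Cyp4f18, which inactivates leukotriene B4 in neutrophils, rose by 2.90 (SE 0.14), and Ltb4r1, the leukotriene B4 receptor, by 1.83 (SE 0.10). Those that fell were the prostaglandin E receptor Ptger3 by 2.32, the reductase Ptgr1 by 1.57, thromboxane synthase Tbxas1 by 1.31 and the prostaglandin D synthase Hpgds by 0.65. Several of the genes that rose are known neutrophil genes, and neutrophil markers rose in 15 of 15 cases in the same libraries; their part was not tested.

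**Figure D4:**
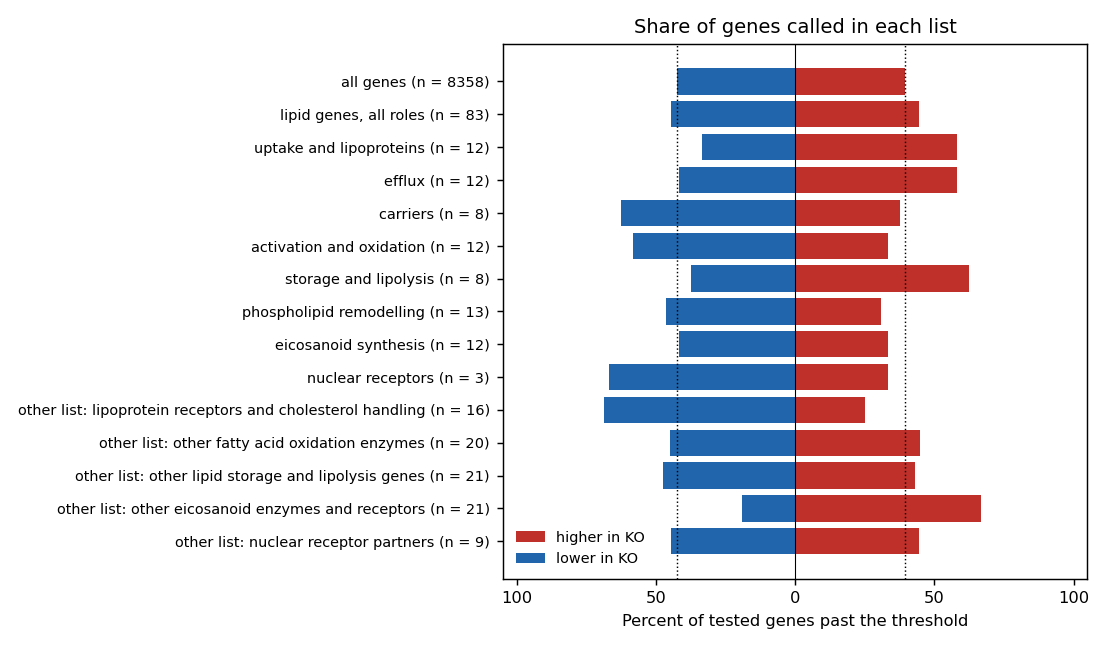
Bars give the percent of tested genes past the threshold that were higher (right) or lower (left) in KO, for all genes, for the lipid genes and for each role and list, with n the genes tested. Dotted lines mark the shares among all genes, 39.6% and 42.4%, and the bar of all lipid genes, at 44.6% on each side, lies close to them.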

How the data were processed

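TRIzol RNA and a dual-mode mRNA kit of BGI were used for the libraries, per the labels' protocols. The authors deposited estimated counts per gene, not scaled, with 1 column per library, per the file headers. Counts that are not whole occur in 14 members and were rounded. Aligner and counter were not given in the sources used here. GRCh38, a human build, stands in the submitters' processing notes while gene IDs are those of mouse, so no gene coordinates are given and the promoter windows carry the build of their own table. All 91 members were found in RefSeq by gene ID. KO and Con were compared over all genes with edgeR 4.0.16 under R 4.3.3 (TMM factors of 0.8759 to 1.17, filterByExpr defaults, robust quasi-likelihood test, two-sided, Benjamini-Hochberg over 8358 genes, threshold 0.05). CPM are counts divided by TMM-scaled library totals, values after ± are standard deviations over 3 libraries, and fold changes are log2, KO less Con. The SE is the fold change divided by the root of its F statistic. At 1 CPM a gene rests on about 10 counts per library. Floors of 3 counts and exact 95% intervals cover counting error only. Each test was also run on simulated counts. The alternatives were DESeq2 1.42.0, limma-voom 3.58.1, upper-quartile scaling, library size only, no filter, a filter of 50 counts in 3 libraries, a replicate block, leaving out each library, and Con replicates 2 and 3 summed. Members, lists and alternatives were chosen with earlier results of these data known. Any member could be named. Values per library were to go to up to 3 members per family and direction of smallest adjusted p whose mean log2 CPM was 2 or more, and of the other lists up to 3 genes per direction were to be named; further genes were named after their values were seen. Promoter motifs were searched by exact match on both strands, and the 4 windows printed were chosen after the changes were known. The values of 2 genes that enter the counts and tests, 1 of them a member, are not reported here.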

Additional observations from a re-analysis of the deposited data

How the results depend on the processing

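The counts of members past the threshold (74 in all, 37 higher and 37 lower) stayed within 1.5 times of these values under every alternative run, and every member called kept its direction in each of them that tested it. The median of the members, near 0, did not keep its sign or size. It was 0.0107 with DESeq2, -0.40 with library size only, where the median of all genes was -0.41, and -0.22 with the stricter filter, where 65 members were tested. Leaving out 1 library gave medians from -0.0838 to 0.0470, the latter without Con replicate 1. The cause was not tested. Signs turned only in members that were not called. Ptges3 was at 0.0441 with DESeq2 and 0.0253 with the stricter filter, and Pla2g15 at 0.0107 with DESeq2. With 1 library left out, Ptges3 ran from -0.14 to 0.0807, Pla2g15 from -0.0838 to 0.0241 and Alox5 from -0.19 to 0.0659. Ptges3-ps was at -0.17 and Apobec3 at -0.16 with library size only. That scaling moved the median of all genes from -0.06 to -0.41 and turned the split of all called genes from 3310 higher and 3544 lower to 2488 and 4476, and that of members to 33 and 43. Samples of the same number did not deviate together (correlations of -0.00166, 0.0277 and -0.00374), so the numbers are taken as names. With the replicate block 37 members rose and 37 fell, and no call of a member changed. Depth limits the genes under about 1 CPM, where a library holds about 10 counts.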
